A study of Mus musculus with 8 samples.

Results

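V(D)J recombination assembles the antigen receptor genes of B and T cells. Rag1 and Rag2 encode the lymphoid recombinase that cuts at the recombination signals, and Dntt encodes terminal deoxynucleotidyl transferase (TdT), the polymerase that adds untemplated nucleotides at the junctions. The cut ends are then joined by factors that nearly all cells use, the Ku heterodimer (Xrcc5 for Ku80 and Xrcc6 for Ku70), the DNA-dependent protein kinase catalytic subunit (Prkdc), the hairpin-opening nuclease Artemis (Dclre1c) and the ligase complex (Lig4 and its partner Xrcc4). These 9 genes, 3 lymphoid-specific and 6 ubiquitous, were taken by name from 20125 gene symbols on a whole mouse genome array. All 9 were found, with 14 probes of 39378, and 12 of these probes gave a signal well above background on each of the 8 arrays.

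The arrays held 4 groups of mouse pro-B cell lines with 2 arrays each. All lines lack Ebf1, a transcription factor that B-cell development requires, and were derived from lineage-negative progenitors of E14.5 fetal liver, grown with SCF, Flt3L and IL-7. The group pro-B(+) was established on OP9 stromal cells and retained T-lineage potential, and pro-B(−) was established on TD7 stromal cells and lacked it. The transductants of the line without potential carried a lentiviral vector with rat CD2 as its marker, either empty (pro-B(−)/Mock) or with mouse Lmo2 (pro-B(−)/LMO2). The series' design text names the control of the Lmo2 vector only as a line without T potential, while its sample titles say empty vector. Each group was 1 established line, the labels do not give the stroma of the transductants, and they do not say whether the replicates were separate cultures, so the p-values below measure the spread between these arrays, which may be technical. The pro-B(+) and pro-B(−) arrays shared 1 slide and the transductants shared another, so comparisons within a pair lie within a slide, and any difference across the pairs cannot be told apart from the slide.

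The replicate arrays were close (r = 0.999), 56.5% to 61.3% of probes per array gave a signal well above background, and no probe was saturated. Levels are log2 signals relative to each array's 75th percentile, where 0 is that percentile, and they cannot be compared between probes. The Lmo2 probe read 0.35 on both Mock arrays and 0.99 and 0.93 on the LMO2 arrays (1.53-fold higher than Mock, adjusted p = 5.6e-05). It read 0.63 on both arrays of the untransduced pro-B(−) line, above Mock, and 2.09 and 2.10 in pro-B(+). Whether this probe reads the Lmo2 transcript of the vector is not known here, so the 1.53-fold difference does not measure how much Lmo2 the vector expressed. The Ebf1 probe read between 1.12 and 1.53 on the 8 arrays. Its place relative to the deleted part of the gene is not known here, so it does not check the deletion.

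Over all 4 groups, which span both slides, the lymphoid-specific genes had the widest range of group means among the 9 genes. From the lowest to the highest group mean of the brightest probe, Dntt spanned 9.20 on the log2 scale, Rag1 3.81 and Rag2 3.03, while the end-joining genes spanned 2.11 (Xrcc5), 0.85 (Xrcc6), 0.56 (Lig4), 0.43 (Dclre1c), 0.40 (Xrcc4) and 0.38 (Prkdc). The dimmer Dclre1c probes spanned 0.41, 1.06 and 0.78. By their brightest probes, Rag1 and Rag2 had the same order of groups, highest in pro-B(−) and lowest in pro-B(−)/LMO2, whereas Dntt was highest in pro-B(−)/LMO2 and lowest in pro-B(+). In these bulk RNA samples, fewer expressing cells and less RNA per cell cannot be told apart.

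**Figure D1:**
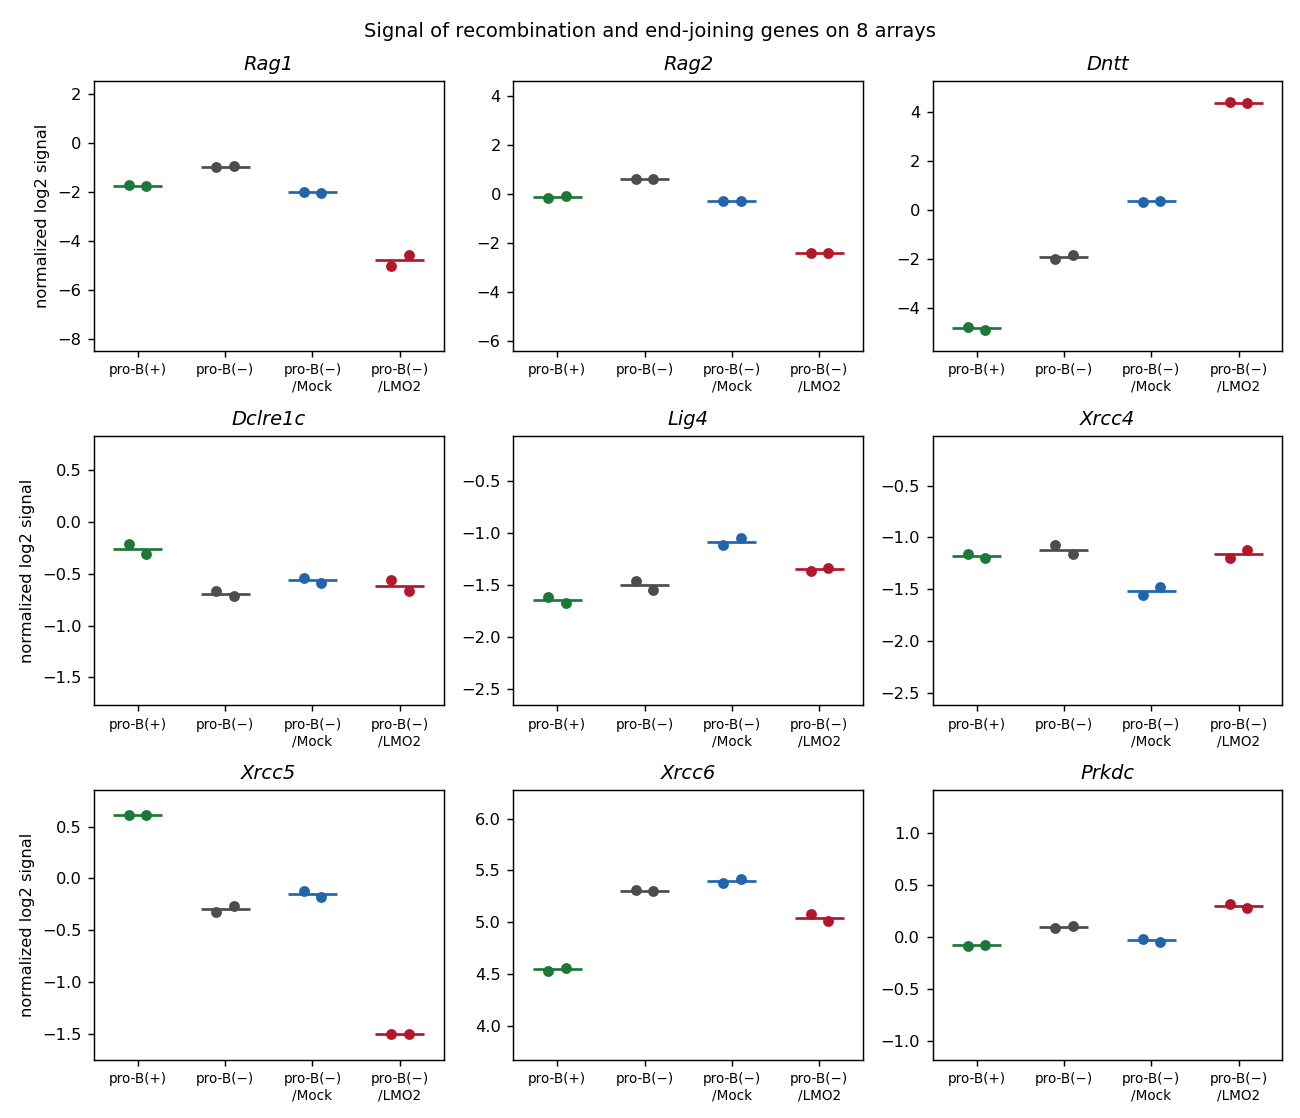
Normalized log2 signal of the brightest probe of each gene (vertical axis) in the 4 groups (horizontal axis), with a point for each array and a line for the group mean. The top row spans 11 log2 units per panel and the lower rows 2.6, so that heights compare within the top row or within the lower rows, and over all 4 groups Dntt, Rag1 and Rag2 range more widely than the other genes, although Xrcc5 differs by 0.90 between pro-B(+) and pro-B(−), against 0.77 for Rag1.

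Markers of other cells were set beside these results as the sum of linear signals relative to each array's 75th percentile. Stromal markers, of which 9 of 11 were well above background in every group and Dcn and Lum in none, summed to 9.13 to 9.27 in pro-B(−), 22.7 to 23.4 in pro-B(+), 24.8 to 25.7 in Mock and 33.1 to 34.1 in LMO2. By these sums, the groups with more stromal signal were those with less Rag1 and Rag2. Gene by gene the stromal order was mixed. Over the 9 stromal genes tested, changes in Mock against pro-B(+) ran from −1.08 to 0.57 (median −0.17). In LMO2 against pro-B(+) they ran from −1.66 to 1.79 (median 0.22). The part of stromal RNA in these results was not tested. Myeloid markers (13 genes) summed to 122 to 125 in pro-B(+), with all 13 well above background, and to 78.7 to 91.1 over the other 6 arrays, where 9 to 11 were. T-lineage markers (13 genes) summed to 37.2 to 39.3 in pro-B(+), 57.2 to 60.6 in pro-B(−), 68.0 to 68.5 in Mock and 56.5 to 57.5 in LMO2, with 8 to 12 well above background by group. Gene by gene the T-lineage order was mixed and did not follow these sums. In pro-B(+) against pro-B(−), 5 of 12 genes tested were higher and 4 lower, against 25.4% and 26.7% of all named genes. Of the 12, 3 changed by at least 2-fold, all higher, against 13.0% of all named genes. The median change was 0.19. With arrays scaled to their median, 4 were higher and 5 lower. Cd3g, Cd3d and Tcf7 were well above background in pro-B(+) but not in pro-B(−). In LMO2 against Mock, 6 of 12 were higher and 3 lower, against 30.8% and 37.4% of all named genes. B-lineage markers (10 genes) summed to no more than 1.98 in any array, and Blk was not well above background in any group. Lymphoid progenitor markers (8 genes) summed to 87.2 to 89.3 in pro-B(+) and 83.7 to 83.9 in pro-B(−). Their sums were higher in the transductants, at 137 to 138 in Mock and 130 to 132 in LMO2, a difference that crosses the slides. By group, 7 or 8 of these genes were well above background. Gene by gene their order was also mixed. In pro-B(+) against pro-B(−), 4 of 8 were higher and 2 lower, with changes from −0.64 to 5.69, against 25.4% and 26.7% of all named genes. For LMO2 against Mock, 3 were higher and 3 lower, with changes from −0.46 to 7.04, against 30.8% and 37.4%. Scaled to the median, 3 were higher and 5 lower in each. The part of these cell types in the results was not tested.

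Rag1 and Rag2 lie next to each other on mouse chromosome 2 on opposite strands, and Dntt lies on chromosome 19. The 250 bases before the annotated start of each gene (RefSeq, build GRCm38.p6) are shown for Rag1 and Rag2, which moved together, for Dntt, which moved apart from them, and for Xrcc6 as an end-joining gene with a CpG-rich start. Capitals mark every E-box (CANNTG, bound by E proteins) and every RUNX motif (TGTGGT, searched on both strands).
Rag1 (chr2:101649533-101649782, minus strand): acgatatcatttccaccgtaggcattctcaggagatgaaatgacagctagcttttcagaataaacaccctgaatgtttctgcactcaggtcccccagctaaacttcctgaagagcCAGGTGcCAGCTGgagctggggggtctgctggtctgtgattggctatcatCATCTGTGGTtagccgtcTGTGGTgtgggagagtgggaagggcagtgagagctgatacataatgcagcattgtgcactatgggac
Rag2 (chr2:101624462-101624711, plus strand): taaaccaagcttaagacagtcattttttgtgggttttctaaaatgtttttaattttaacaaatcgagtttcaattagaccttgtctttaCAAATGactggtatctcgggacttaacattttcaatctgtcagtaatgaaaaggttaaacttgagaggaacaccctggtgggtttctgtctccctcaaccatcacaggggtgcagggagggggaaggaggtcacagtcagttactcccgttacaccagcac
Dntt (chr19:41029025-41029274, plus strand): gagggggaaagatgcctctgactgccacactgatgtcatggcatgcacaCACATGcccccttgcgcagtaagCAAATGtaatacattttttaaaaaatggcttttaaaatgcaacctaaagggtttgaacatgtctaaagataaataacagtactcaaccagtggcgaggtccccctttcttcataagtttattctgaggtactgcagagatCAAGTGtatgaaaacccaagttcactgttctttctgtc
Xrcc6 (chr15:82016119-82016368, plus strand): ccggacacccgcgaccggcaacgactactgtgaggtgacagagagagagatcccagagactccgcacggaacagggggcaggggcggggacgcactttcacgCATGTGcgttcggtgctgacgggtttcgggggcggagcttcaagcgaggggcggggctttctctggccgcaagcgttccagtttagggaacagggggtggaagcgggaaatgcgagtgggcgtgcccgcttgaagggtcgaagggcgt

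The Rag1 stretch held 3 E-boxes and 2 RUNX motifs, which began 81 and 67 bases before the start, the first of them overlapping an E-box. Rag2 held 1 E-box and Dntt 3, without a RUNX match in these windows. Of 32851 mouse promoters of the same length, 66.2% held an E-box, 14.0% a RUNX motif and 1.27% at least 2 RUNX motifs. A GATA motif (AGATAA, both strands, not in capitals above) was found once in Dntt, 112 bases before the start, and in 9.99% of all promoters. These matches are letters in a window and not measured binding.

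The CpG content of the starts was read for 8 of the 9 genes, all but Prkdc. The starts of Rag1, Rag2 and Dntt held 3, 3 and 2 CpG dinucleotides, below the median of 6 over all promoters. Xrcc4 held 26, Xrcc6 25 and the 2 annotated starts of Lig4 27 and 28, whereas Xrcc5 held 5 and Dclre1c 8. The start of Xrcc5, the end-joining gene with the widest differences here, was thus also below that median.

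The first comparison, pro-B(+) against pro-B(−), asked how the line with T potential differs from the line without it. All 3 lymphoid-specific genes were lower in pro-B(+). With the end-joining genes, 7 of 9 changed at an adjusted p under 0.05, against 52.2% of all named genes tested, and 1 of 9 changed by at least 2-fold, against 13.0%.

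Rag1 read −1.73 and −1.79 on the pro-B(+) arrays and −1.01 and −0.96 on the pro-B(−) arrays. Its groups did not overlap, and it was 1.71-fold lower in pro-B(+) (log2 change −0.77 ± 0.14 SE, adjusted p = 0.0069), while its second, dimmer probe gave −0.75 and did not pass (adjusted p = 0.072). Rag2 read −0.16 and −0.10 in pro-B(+) against 0.62 and 0.60 in pro-B(−). It was 1.67-fold lower (−0.74 ± 0.037 SE, adjusted p = 4.0e-05), so that the signals of both recombinase genes were lower by nearly the same factor.

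The TdT gene Dntt read −4.78 and −4.88 in pro-B(+) and −2.00 and −1.82 in pro-B(−). This was a 7.56-fold lower signal in pro-B(+) (−2.92 ± 0.068 SE, adjusted p = 2.6e-06), the widest difference of the 9 genes in this comparison. The pro-B(+) values lay not far above the dimmest probes that counted as well above background on those arrays (−5.91 and −5.56). The change was −1.81 under the normexp alternative. That alternative modelled the background of the median spot signal, added an offset of 50 and quantile normalized the arrays. The effects of these steps were not separated.

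Among the end-joining genes, 2 of 6 were higher in pro-B(+) and 2 of 6 lower, against 25.4% and 26.7% of all named genes. The Ku genes, whose products act as 1 heterodimer, moved in opposite directions. Xrcc5 read 0.61 on both pro-B(+) arrays and −0.32 and −0.26 in pro-B(−), 1.87-fold higher in pro-B(+) (0.90 ± 0.039 SE, adjusted p = 2.5e-05). Xrcc6 read 4.53 and 4.56 in pro-B(+) and 5.31 and 5.30 in pro-B(−), 1.69-fold lower (−0.76 ± 0.039 SE, adjusted p = 4.5e-05).

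Dclre1c rose by 0.43 ± 0.057 SE (adjusted p = 0.0021), although with arrays scaled to their median the change was 0.14 and did not pass (adjusted p = 0.098). Prkdc was 1.13-fold lower in pro-B(+) (−0.18 ± 0.034 SE, adjusted p = 0.0084). Lig4 (−0.14, adjusted p = 0.054) and its partner Xrcc4 (−0.06, adjusted p = 0.37) did not pass, and the 95% interval of the Xrcc4 change ran from −0.19 to 0.07. Scaling to the median moved the median change of all probes tested from −0.04 to −0.33 in this comparison, and both genes passed there, with Lig4 at −0.43 and Xrcc4 at −0.35. The calls of Dclre1c, Lig4 and Xrcc4 thus changed with the scaling, while the brightest probes of Rag1, Rag2, Dntt, Xrcc5, Xrcc6 and Prkdc kept direction and call under each scaling.

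**Figure D2:**
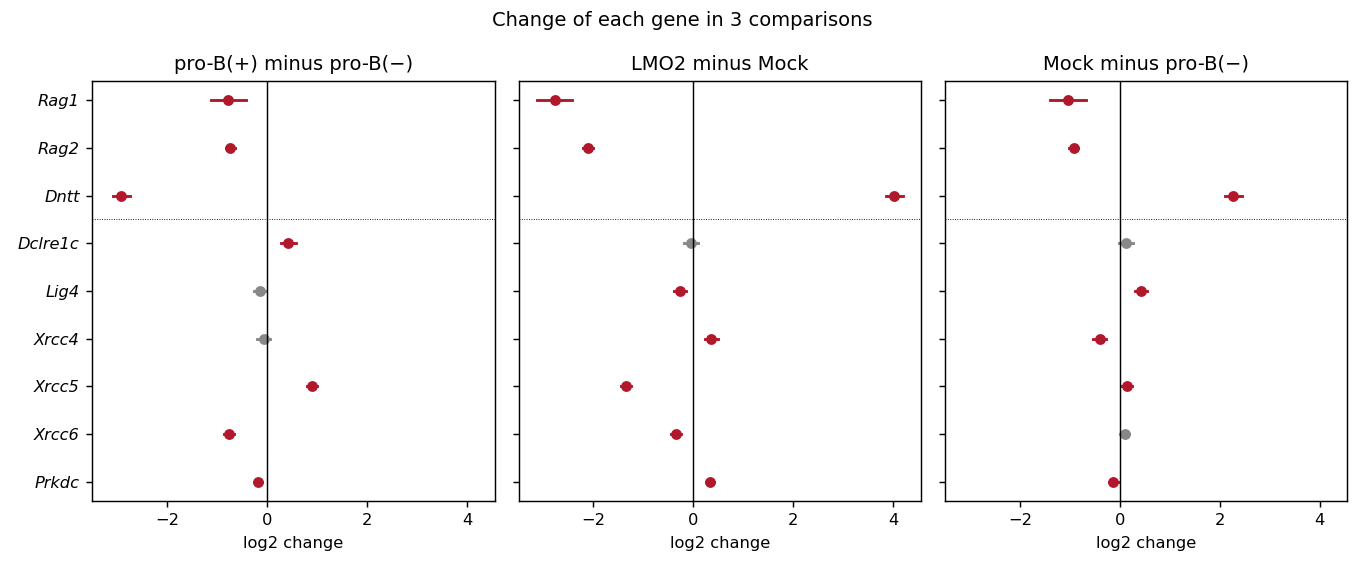
Log2 change (horizontal axis) of each gene in 3 comparisons, as the fitted change with its 95% interval, in red where the adjusted p was under 0.05 and grey otherwise. A dotted line parts the lymphoid-specific genes from the end-joining genes; Dntt lies at −2.92, 4.02 and 2.27, while Rag1 and Rag2 lie below 0 in all 3 panels.

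In the second comparison, the Lmo2 vector against the empty vector, which asked what enforced Lmo2 changes in the line without T potential, Rag1 and Rag2 were again lower and Dntt was strongly higher. Of the 9 genes, 8 passed, against 68.2% of all named genes tested, and 4 of 9 changed by at least 2-fold (Rag1, Rag2, Dntt and Xrcc5), against 11.1%.

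Rag1 read −5.02 and −4.58 on the LMO2 arrays and −2.00 and −2.05 on the Mock arrays, and was 6.86-fold lower with Lmo2 (−2.78 ± 0.14 SE, adjusted p = 3.9e-05). Rag2 read −2.43 and −2.40 with Lmo2 and −0.31 on both Mock arrays, 4.31-fold lower (−2.11 ± 0.037 SE, adjusted p = 1.5e-06). Neither gene's groups overlapped, and the LMO2 arrays were the lowest of all 8 for both genes. Under the normexp alternative, with its offset and quantile step, the Rag1 change was smaller, at −1.42, and still passed (adjusted p = 1.9e-08).

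Each recombinase gene had a second, dimmer probe that showed the same direction. The second Rag1 probe was not well above background on either LMO2 array, so its change is only a bound, at least 1.30-fold lower with Lmo2 (adjusted p = 0.0022). The second Rag2 probe is printed 10 times per array, and no spot of it was well above background on the LMO2 arrays, whereas all 10 were on each of the other 6 arrays. It was at least 3.04-fold lower with Lmo2 (adjusted p = 6.1e-06).

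Dntt read 4.39 and 4.36 on the LMO2 arrays and 0.34 and 0.37 on the Mock arrays. It was 16.2-fold higher with Lmo2 (4.02 ± 0.068 SE, adjusted p = 1.4e-06), and its LMO2 values were the highest of all 8 arrays. The RNA signals of the junctional polymerase gene and of the recombinase genes thus moved in opposite directions in the same bulk samples. Relative to pro-B(+), where the probe lay near background, Dntt was 9.20 higher on the log2 scale in pro-B(−)/LMO2. Under the normexp alternative this difference was 7.75, and by either reading it crosses the slides.

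In the ligation and processing genes the changes were smaller, apart from Xrcc5. Xrcc5 read −1.50 on both LMO2 arrays and −0.12 and −0.18 on the Mock arrays, 2.55-fold lower with Lmo2 (−1.35 ± 0.039 SE, adjusted p = 6.1e-06). Xrcc6 read 5.08 and 5.01 with Lmo2 and 5.38 and 5.42 on the Mock arrays, 1.28-fold lower (−0.35 ± 0.039 SE, adjusted p = 0.00061). Both Ku genes were lower with Lmo2, unlike in the first comparison. The difference between the changes of the 2 comparisons passed for 8 of 9 genes, all but Lig4, against 58.8% of all named genes tested, and was 2.25 for Xrcc5 (adjusted p = 8.1e-06) and −0.40 for Xrcc6 (adjusted p = 0.0020).

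The ligase gene Lig4 was lower with Lmo2 (−0.27, adjusted p = 0.0041), while its partner Xrcc4 rose by 0.36 (adjusted p = 0.0020). Prkdc, measured by 10 spots per array, read 0.32 and 0.28 with Lmo2 and −0.02 and −0.05 on the Mock arrays, 1.26-fold higher (0.33 ± 0.034 SE, adjusted p = 0.00044). With arrays scaled to the median, the Xrcc4 change was 0.15 and no longer passed (adjusted p = 0.077). The brightest Dclre1c probe overlapped between the groups (−0.05, adjusted p = 0.47, 95% interval from −0.19 to 0.09), but passed at −0.26 with arrays scaled to the median (adjusted p = 0.016).

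The 4 probes of Dclre1c, the Artemis gene, did not move alike with Lmo2. They are annotated to 2 RefSeq transcripts, 2 probes to NM_146114 and 2 to NM_175683. Against Mock, the NM_146114 probes changed by −0.05 (adjusted p = 0.47) and 0.09 (adjusted p = 0.15). The NM_175683 probes rose by 0.76 (adjusted p = 8.5e-05) and 0.52 (adjusted p = 0.029). The brighter of these read −1.27 on both LMO2 arrays and −2.02 and −2.04 on the Mock arrays, and the 95% interval of its change ran from 0.64 to 0.88. The difference between the probes itself was not tested. In the first comparison all 4 probes were higher in pro-B(+) by a similar amount, between 0.39 and 0.43, of which 3 passed.

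**Figure D3:**
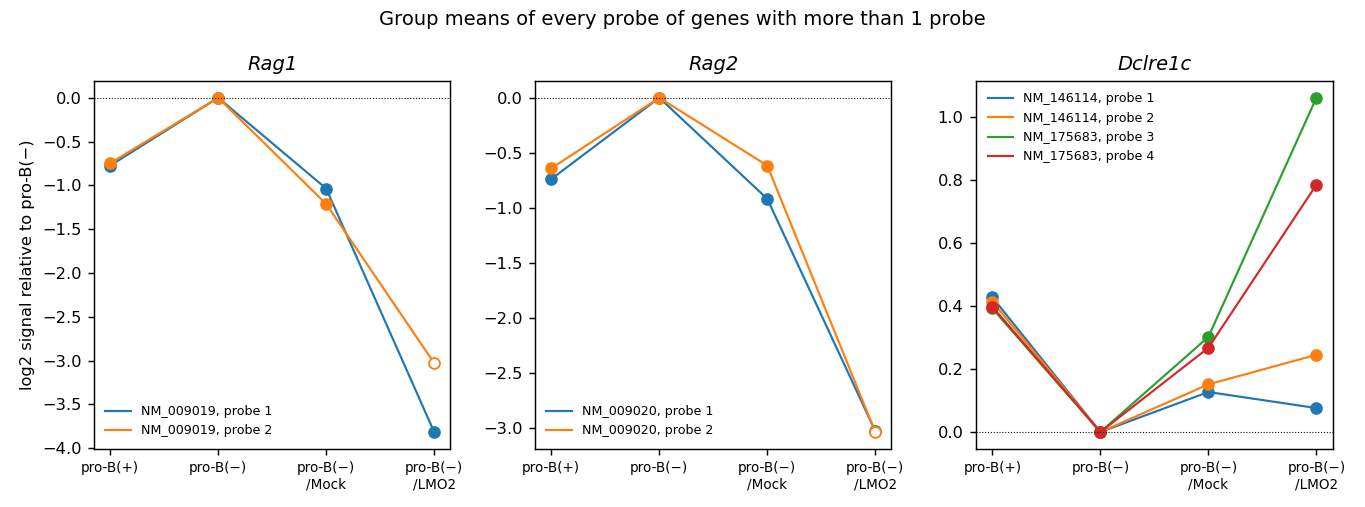
Mean log2 signal of every probe of Rag1, Rag2 and Dclre1c in the 4 groups, relative to the mean of the same probe in pro-B(−) (vertical axis), with open circles where a probe was not well above background on either array of a group. The 2 probes of each Rag gene follow each other, while the Dclre1c probes part by transcript in pro-B(−)/LMO2, at 1.06 and 0.78 for NM_175683 against 0.08 and 0.24 for NM_146114.

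The empty-vector line also differed from the line it came from. Against pro-B(−), Rag1 was 2.05-fold lower in pro-B(−)/Mock (−1.04 ± 0.14 SE, adjusted p = 0.0020), Rag2 1.89-fold lower (−0.92 ± 0.037 SE, adjusted p = 3.3e-05) and Dntt 4.81-fold higher (2.27 ± 0.068 SE, adjusted p = 1.4e-05). These have the same signs as the changes with Lmo2. In all, 7 of 9 genes passed, against 59.5% of named genes tested, and 2 of 9 by at least 2-fold (Rag1 and Dntt), against 9.56%. The vector, the culture and the slide cannot be told apart in this comparison.

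Lig4 was 1.34-fold higher in Mock than in pro-B(−) (0.42, adjusted p = 0.0010) and Xrcc4 1.32-fold lower (−0.40, adjusted p = 0.0017). Xrcc5 (0.14, adjusted p = 0.026) and Prkdc (−0.13, adjusted p = 0.022) passed narrowly. Without Mock replicate 1 or pro-B(−) replicate 1 the Xrcc5 call was lost (adjusted p = 0.12 and 0.11), as it was without LMO2 replicate 1 (change 0.14), and the Prkdc call was lost without any single one of the 4 arrays compared (adjusted p from 0.053 to 0.10, changes from −0.14 to −0.11). Xrcc6 (0.10, adjusted p = 0.082) and the brightest Dclre1c probe (0.13, adjusted p = 0.11) did not pass.

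Ordered by level, Rag1 ran from pro-B(−) through pro-B(+) and Mock to LMO2, and the step from pro-B(+) to Mock (0.26) did not pass (adjusted p = 0.15). That call turned with the LMO2 arrays, which spread more for Rag1 (SD 0.32) than any other pair (SD 0.035 to 0.043), since without LMO2 replicate 1 or 2 the same step had adjusted p = 0.0074 and 0.0069. With arrays scaled to the median the step changed sign, with Mock 0.041 above pro-B(+) (adjusted p = 0.81). For Rag2 the step from pro-B(+) to Mock was −0.18 (adjusted p = 0.0071), but it was 0.12 with arrays scaled to the median and 0.03 by the second probe, so the order of these neighbours is not settled. All neighbouring groups differed for Dntt, in the order LMO2, Mock, pro-B(−), pro-B(+), with gaps of 4.02, 2.27 and 2.92. Xrcc5 also differed at each step, in the order pro-B(+), Mock, pro-B(−), LMO2. For Xrcc4, pro-B(−), LMO2 and pro-B(+) did not differ beyond their spread at neighbouring steps, and Mock lay below pro-B(+) by 0.34 (adjusted p = 0.0023), a step that was −0.036 and did not pass with arrays scaled to the median (adjusted p = 0.61).

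The other genes of break repair were read from lists of the accessory end-joining factors (7 genes), the break response (10), alternative end joining (6) and the cofactors that act with the recombinase (3). None of their 26 genes changed by 2-fold in either of these 2 comparisons. Between pro-B(+) and pro-B(−), 4 of the 26 were higher and 9 lower, against 25.4% and 26.7% of all named genes, with a median change between −0.10 and 0.12 by list, beside −0.01 over all named genes. The accessory polymerase gene Polm showed the largest change of its list (0.41, adjusted p = 0.00083). Scaled to the median, none was higher and 23 of the 26 lower, so the direction of these small changes turns with the scaling.

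With Lmo2, 5 of 6 alternative end-joining genes and 3 of 3 recombinase cofactor genes were lower, and none was higher, against 37.4% of all named genes lower and 30.8% higher. Their median changes were −0.46 and −0.49, beside −0.03 over all named genes. The log2 change was −0.58 for the polymerase gene Polq (adjusted p = 2.0e-04) and −0.66 for Hmgb1, whose protein bends DNA for the recombinase (adjusted p = 2.0e-04). In the break response, 6 of 10 were lower and 1 higher, with the nuclease gene Mre11a falling by 0.72 (adjusted p = 5.2e-05). The accessory factors were higher in 3 of 7 and lower in 1 of 7, but with arrays scaled to the median in 0 and 2 of 7.

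Regulators known to act at the Rag locus did not move as a block. In each of the first 2 comparisons 4 of 15 were higher and 8 lower, against 25.4% and 26.7% of all named genes in the first and 30.8% and 37.4% in the second. With arrays scaled to the median, 2 were higher and 11 lower in the first comparison and 4 higher and 10 lower in the second. Foxo1, an activator of Rag transcription in B-lineage cells, read −0.83 in pro-B(+) and −2.57 in pro-B(−) (means, 1.74 higher, adjusted p = 0.0034), and was 1.68 higher with Lmo2 (adjusted p = 0.0026), while the Rag genes were lower in both. Bcl11a, a zinc-finger regulator of lymphoid progenitors, was 5.57 higher in pro-B(+) and 5.87 higher with Lmo2 (adjusted p = 3.9e-07 in both), the widest change of this list. Runx1 was lower in pro-B(+) by more than 2-fold (−1.11, adjusted p = 2.2e-05) and changed by −0.17 with Lmo2 (adjusted p = 0.022).

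The neighbours of the Rag genes on chromosome 2 were 2 of 4 higher and none lower in pro-B(+), where the Rag genes were lower. Of all named genes, 25.4% were higher and 26.7% lower there. With Lmo2, 1 of 4 was higher and 3 of 4 lower, against 30.8% and 37.4% of all named genes. Scaled to the median, 2 were higher and 2 lower in pro-B(+), and 1 higher and 3 lower with Lmo2. Iftap was 2.45 higher in pro-B(+) (adjusted p = 1.3e-06) and 0.99 lower with Lmo2 (adjusted p = 2.9e-05). Prr5l was higher in both, by 1.14 and 1.01 (adjusted p = 0.0011 in both). Traf6 and Commd9 did not pass in the first comparison and were lower with Lmo2.

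**Figure D4:**
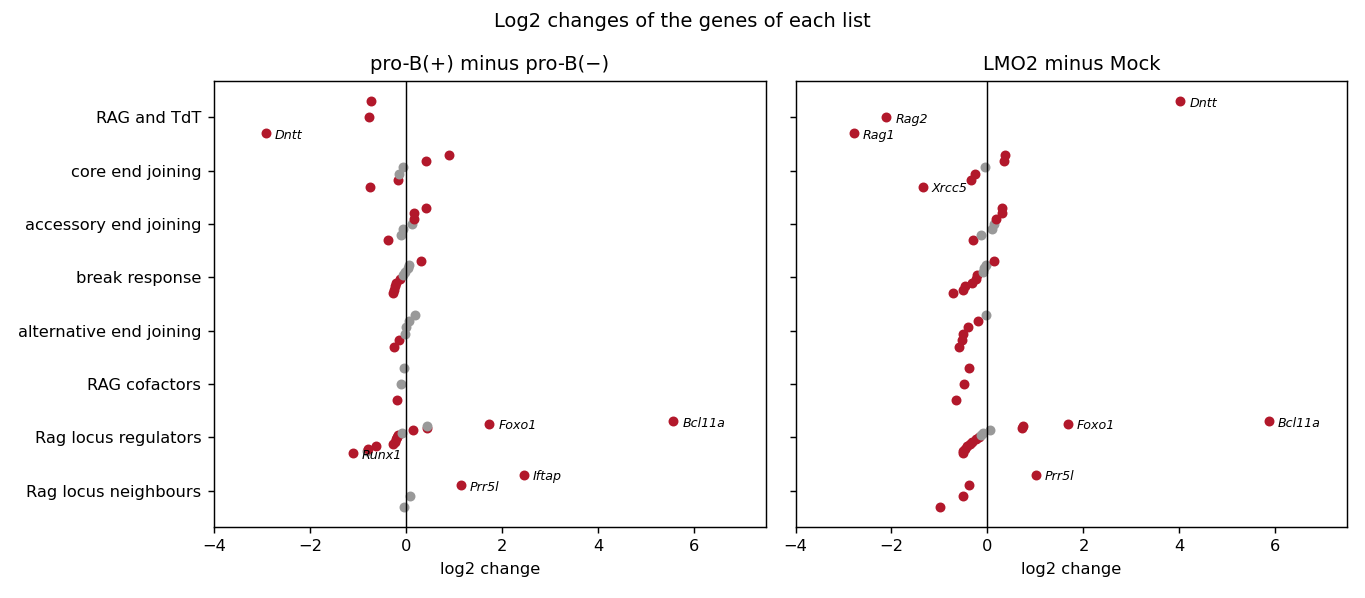
Log2 change of each gene (points, horizontal axis) of the lists named on the vertical axis, for pro-B(+) minus pro-B(−) on the left and LMO2 minus Mock on the right, in red where the adjusted p was under 0.05 and grey otherwise, with names where the change was at least 2-fold. The repair lists stay within 1 log2 unit of 0 apart from Xrcc5 on the right. Dntt, Bcl11a, Foxo1 and Prr5l reach farther in both panels, Runx1 and Iftap on the left only, and Rag1 and Rag2 on the right only.

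Genes whose profile over the 8 arrays was most like that of a lymphoid-specific gene were ranked among 13732 others by the root mean square difference after centring each on its mean, as a description. For Rag2 the closest were Wnt10a (0.14 log2 units), Gpsm2 (0.18), Snx24 (0.20), Inava (0.25) and Nipa1 (0.26), and Rag1 ranked 17. For Rag1 the closest were Gm11110 (0.23), Snx24 (0.25), Wnt10a (0.29), Trpa1 (0.34) and, at rank 5, Rag2 (0.34). For Dntt the nearest were Trpc6 (0.93), Lmo7 (1.03), Muc13 (1.12), Strip2 (1.15) and Cfd (1.19). These differences were not scaled to a gene's range, which was widest for Dntt, so closeness cannot be compared between the lymphoid-specific genes. In pro-B(+) the means of Trpc6 (−7.36) and Lmo7 (−7.18) lay below the lowest signals well above background (−5.91 and −5.56).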

How the data were processed

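Total RNA was labelled with Cy3 and hybridised to one-colour Agilent arrays. The authors deposited spot intensity from Feature Extraction, background subtracted and detrended per the file headers, and a matrix of log2 values scaled to the 75th percentile, used here as an alternative.

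Control and outlier spots were left out, spots of a probe averaged, and log2 intensity taken relative to each array's 75th percentile (603.8 to 948.5). Accessions without version were matched to a RefSeq table (GRCm38.p6), naming 26550 of 39378 probes (67.4%). The design was annotated on another build, so gene table coordinates are not given. The probe with the highest mean stood for a gene. A probe was tested where both arrays of 1 or more of the groups compared read it well above background. All 8 arrays entered 1 limma 3.58.1 fit (R 4.3.3; lmFit on 4 group means, 4 residual degrees of freedom; eBayes), with Benjamini-Hochberg adjustment over all probes tested and calls under 0.05. Folds "at least" set the brighter group against the higher of the probe's own signal and the array's lowest signal well above background. The fit was tested on simulated data. The number of arrays limits the precision.

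All 9 genes were named with every probe; of the other lists, genes called at 2-fold or more in the first or second comparison, or the largest change of a list without any; and the 5 genes nearest in profile to Rag1, Rag2 and Dntt. Members and lists were chosen with earlier results of these data known. Alternatives covered scaling, background, filters, variance prior, arrays in the fit and other probes.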

Additional observations from a re-analysis of the deposited data

Results flagged for a closer look

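The change from pro-B(−) to pro-B(+) and the change from Mock to LMO2 were tested against each other, as the first less the second on the log2 scale. They differed for 8 of the 9 genes (adjusted p under 0.05), against 58.8% of all named genes tested. The difference was −6.94 for Dntt (adjusted p = 3.1e-06), which was lower in pro-B(+) and higher with Lmo2, and 2.25 for Xrcc5 (adjusted p = 8.1e-06), which was higher in pro-B(+) and lower with Lmo2. Rag1 (2.00, adjusted p = 0.00064) and Rag2 (1.37, adjusted p = 2.7e-05) were lower in both, by more with Lmo2, and the second Rag1 probe gave 1.07 (adjusted p = 0.064). Smaller differences were 0.48 for Dclre1c, −0.42 for Xrcc4, −0.40 for Xrcc6 and −0.51 for Prkdc. Lig4 did not pass (0.13, adjusted p = 0.16). The 2 changes come from different slides and different controls.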

How the results depend on the processing

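Over the 9 genes, the 7 comparisons and up to 20 alternatives each, 1029 of 1097 values kept their direction and side of the threshold, 31 lost the call, 18 gained it and 19 changed sign. Dntt kept both under all 118. Of the sign changes, 6 came from the NM_175683 probes of Dclre1c (0.76 and 0.52 for LMO2 against Mock, 0.67 and 0.39 for LMO2 against pro-B(+), −0.37 and −0.12 for the difference of the 2 effects) and 1 from the second Rag2 probe (0.025 for Mock against pro-B(+)). Scaling to the median gave 0.12 for Rag2 and 0.0019 for Dclre1c (Mock against pro-B(+)) and −0.039 for Lig4 (LMO2 against pro-B(−)), which normexp on the median spot signal put at −0.0084. The other 8 were of changes that did not pass under either setting: for Dclre1c, 0.094 by its other NM_146114 probe and 0.0035 without LMO2 replicate 2, or −0.11 without LMO2 replicate 1 (LMO2 against Mock), and −0.11 by median scaling and −0.013 by normexp (LMO2 against pro-B(−)); for Xrcc4 in LMO2 against pro-B(+), −0.016 by quantile normalization, −0.069 by normexp and −0.023 without LMO2 replicate 2 (0.057 without LMO2 replicate 1); and for Rag1 in Mock against pro-B(+), 0.041 by median scaling. Scaling to the median also raised the probes called for pro-B(+) against pro-B(−) from 11400 (4833 higher, 6567 lower) to 18511 (2932 higher, 15579 lower), and for LMO2 against Mock from 14728 (6441 and 8287) to 16327 (4000 and 12327), where it moved the median change from −0.04 to −0.25. Leaving out 1 array at a time gave 8625 to 10847 probes called for pro-B(+) against pro-B(−) and 12880 to 14537 for LMO2 against Mock.

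The replicate numbers did not pair the samples (correlations of same-numbered deviations from −0.027 to 0.051). With the replicate number as a block, 11051 and 14454 probes were called in these comparisons. The block changed 1 call among the 9 genes, Dclre1c for Mock against pro-B(−) (0.13, adjusted p = 0.038). A planned normexp correction of mean spot signals was not run, since the values used here hold the median spot signal, which replaced it after the data were seen. Probes near background, Dntt in pro-B(+) and Rag1 in LMO2 among them, limit the folds given.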
